A study of Mus musculus with 9 samples.

Results

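Matricellular proteins are secreted proteins that sit in the extracellular matrix and tune how cells attach, spread and respond to growth factors, rather than bearing load themselves. Hepatic stellate cells line the liver sinusoids and store retinoids when quiescent, and on activation they become contractile myofibroblasts that lay down fibrillar collagen together with fibronectin and several of these proteins. The genes described here were the thrombospondins Thbs1, Thbs2 and Thbs3, the related spondin Spon1, the fasciclin-domain proteins Postn (periostin) and Tgfbi, the tenascin Tnc, the collagen-binding glycoprotein Sparc, the small leucine-rich proteoglycan Dcn (decorin), and Fn1 (fibronectin), the matrix scaffold that many of them bind. They were chosen by gene symbol, with earlier results of these data known. Of the 10, 10 had a row among the 14020 genes of the deposited table.

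RNA was sequenced from mouse hepatic stellate cells grown for 4 days in DMEM with 10% fetal bovine serum under basal conditions, with no further agent. There were 3 groups with 3 libraries each: cells labelled as double knock-out of Nbr1 and Sqstm1 (DKO), cells labelled as Sqstm1 knock-out (Sqstm1 KO), and wild type cells (WT). Sqstm1 encodes the selective autophagy receptor p62, and Nbr1 encodes a related autophagy receptor. The labels give no promoter or Cre driver, no sex or age, and do not say whether replicates were separate animals or separate cultures, so p-values measure only the spread between these samples, which may be technical.

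The libraries held 819677 to 1467793 counted reads. Values are normalized counts, that is, each library's gene counts over its own size factor, as the authors deposited them. Sqstm1 RNA averaged 45.7 ± 17.7 in libraries labelled DKO and 52.8 ± 29.8 in Sqstm1 KO, against 240.4 ± 16.1 in WT (SD, n = 3 each; limma adjusted p = 0.00116 for DKO against WT and 0.0023 for Sqstm1 KO against WT). Nbr1 RNA averaged 90.7 ± 17.5 in libraries labelled DKO, 78.9 ± 8.85 in Sqstm1 KO and 101 ± 7.64 in WT, with a limma adjusted p of 0.722 for DKO against Sqstm1 KO and 0.735 for DKO against WT, so the Nbr1 part of the label is not checked by RNA level. Of the genes on the Y chromosome, Ddx3y, Kdm5d, Uty and Eif2s3y had reads in every library labelled DKO and every WT library. They had 0 reads in the 3 Sqstm1 KO libraries. In any comparison with Sqstm1 KO the genotype and the presence of Y-linked transcripts therefore cannot be told apart. Eif2s3y was also lower in DKO against WT, averaging 15.1 against 65.87 (log2 fold change -2.34; limma adjusted p = 0.0162). Ddx3y, Kdm5d and Uty were not called in DKO against WT, with log2 fold changes of -0.58, -0.03 and -0.50. The part of Y-linked differences in the DKO against WT results was not tested. Sqstm1 KO replicate 3 stood apart, with 12673 genes detected against 13349 to 13794 in the other libraries, and 18.5% of its reads in its top 10 genes against 9.74% to 13.9% elsewhere. Of 8 endothelial markers 1, Stab2, had values, at 2.87 to 12.6 in libraries labelled DKO, 2.17 to 8.17 in Sqstm1 KO and 9.70 to 16.3 in WT. Of 5 cholangiocyte markers 2 had values, and the 7 hepatocyte and 6 lymphocyte markers listed were not analysed here. The strand counted is not given in the sources used here. Pcsk7, whose exons overlap those of the smooth muscle gene Tagln on the opposite strand, averaged 10632 over the 9 libraries against 271 for Tagln. By group Pcsk7 averaged 10142 in libraries labelled DKO, 19637 in Sqstm1 KO and 2116 in WT. Tagln had the same order of groups, at 237, 462 and 114. Whether reads were counted on the strand of their own gene was not tested, so any value may hold reads of a transcript on the other strand or miss reads of its own.

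The 10 genes did not move as a block. In Sqstm1 KO against WT, Postn and Dcn rose and Thbs2 fell to near 0 reads. In DKO against Sqstm1 KO, Thbs2, Tgfbi, Tnc and Dcn rose. In DKO against WT, Dcn, Tgfbi, Postn and Tnc rose and Spon1 fell. Dcn passed the test in all 3 comparisons, and Thbs1, Thbs3, Sparc and Fn1 in none of them. The Dcn call in DKO against Sqstm1 KO was lost in 6 of the 9 fits that each left out 1 library. Because each group enters a pair of comparisons, the 3 sets of values are not independent of one another.

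A gene was called when its adjusted p was under 0.05 in limma's moderated model over all 10118 genes tested, which included all 10. In Sqstm1 KO against WT 3 of the 10 were called (2 higher, 1 lower), beside 5.61% of all genes tested (2.43% higher, 3.18% lower). In DKO against Sqstm1 KO 4 were called, each of them higher, beside 5.93% of all genes tested (4.42% higher, 1.51% lower). The count of 0 lower was also that of edgeR and DESeq2 on recovered reads, and 2 of the 10 were lower at an unadjusted p under 0.05 in limma. In DKO against WT 5 were called (4 higher, 1 lower), beside 6.42% (4.11% higher, 2.31% lower). Tgfbi, counted as higher in both comparisons of DKO, reached the 10 normalized counts needed for testing in the libraries labelled DKO alone. Its direction in those comparisons was therefore set by the filter. Dcn reached 10 normalized counts in 6 libraries, none of them WT, and Thbs2 in 6 libraries, none of them Sqstm1 KO. The filter bears in the same way on their comparisons with those groups. The values of the groups did not overlap for 5 of the 10 genes in Sqstm1 KO against WT, for 8 in DKO against Sqstm1 KO and for 8 in DKO against WT, beside 26%, 21% and 31.2% of all genes tested in those comparisons. The median log2 fold change of the 10 genes was 0.34, 0.79 and 0.97 in the same order of comparisons, and that of all genes tested lay between -0.02 and -0.01. Since the 10 were chosen with earlier results of these data known, their counts and medians beside those of all genes are a description only. Without Sqstm1 KO replicate 3 the count of called genes was 6 in Sqstm1 KO against WT, 4 in DKO against Sqstm1 KO and 7 in DKO against WT. With 3 libraries a group, the smallest p an exact permutation test allows is 0.1, so single values were tested in the pooled model alone.

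**Figure D1:**
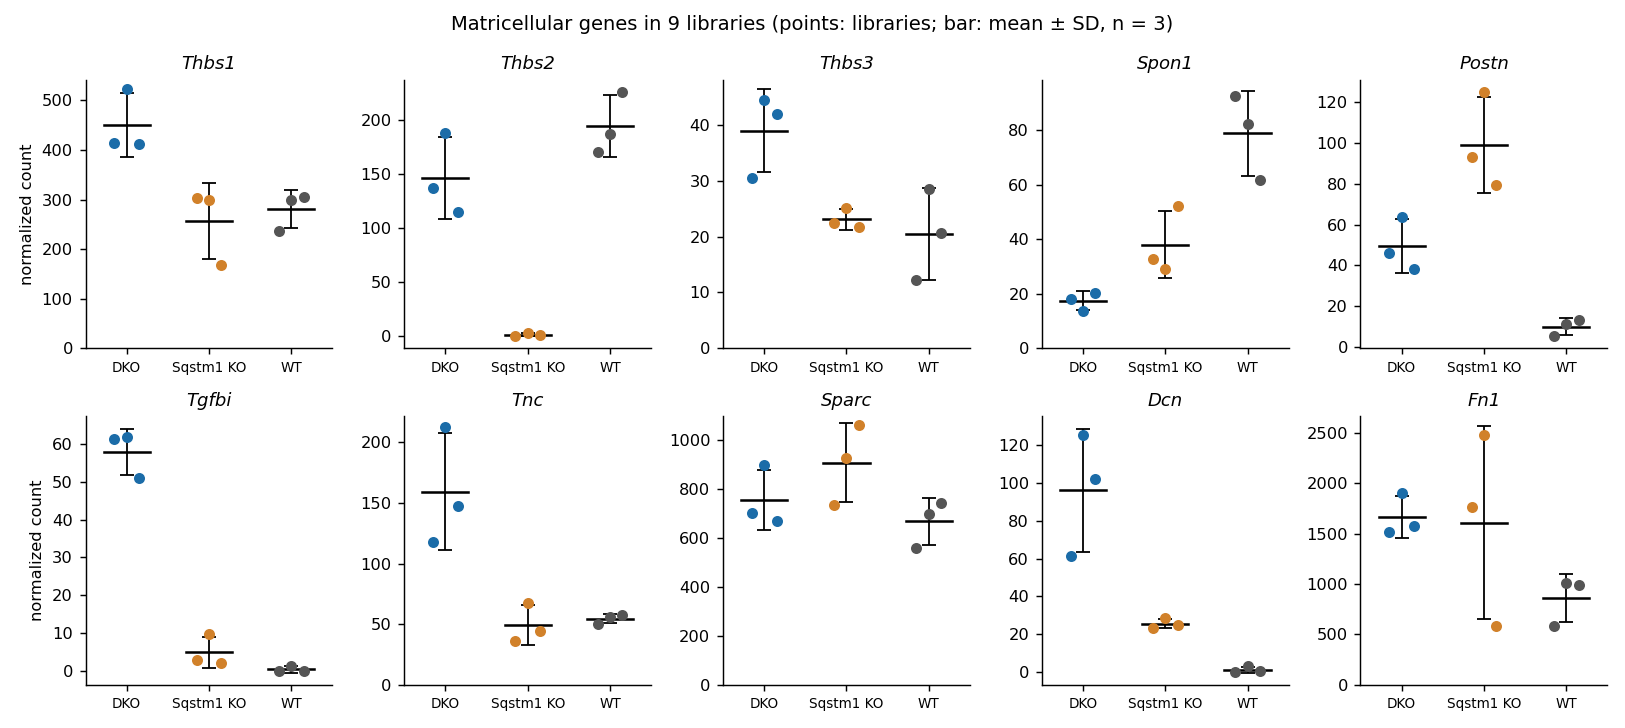
Normalized counts of the 10 matricellular genes (y axis, 1 panel per gene, each with its own linear scale) in libraries labelled DKO, Sqstm1 KO libraries and WT libraries; points are libraries and bars are the mean ± SD of 3. Thbs2 lies between 0 and 2.43 in Sqstm1 KO and above 114 elsewhere, and Tgfbi lies above 50 in libraries labelled DKO and under 10 elsewhere.

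Among the thrombospondins, Thbs2 had the largest change. Thbs2 encodes a trimeric thrombospondin that limits angiogenesis and, through the receptor LRP1, helps clear matrix metalloproteinase 2. Its normalized counts were 137, 188 and 115 in libraries labelled DKO, 0, 2.43 and 1.08 in Sqstm1 KO, and 170, 188 and 226 in WT. The Sqstm1 KO values rest on 0, 3 and 1 reads, all 3 libraries lie far under every other library, and the libraries labelled DKO overlap WT. Thbs2 averaged 1.17 ± 1.22 in Sqstm1 KO against 195 ± 28.6 in WT, a log2 fold change of -6.66 (SE 0.40; limma adjusted p = 3.94e-07). From pooled reads the level in Sqstm1 KO was 158-fold lower, with a 95% counting interval of 61.3 to 580.3. Thbs2 averaged 147 ± 37.8 in libraries labelled DKO, which is 6.23 above Sqstm1 KO on the log2 scale (SE 0.40; limma adjusted p = 7.17e-07) and 115-fold by pooled reads (44.6 to 425). DKO and WT did not differ past the threshold (log2 fold change -0.43, SE 0.40, 95% interval -1.28 to 0.43; limma adjusted p = 0.587). The calls in both comparisons with Sqstm1 KO held in each of the 9 fits that left out 1 library. Intervals from reads cover counting error only, and in RNA from a whole culture fewer cells of a type and less RNA per cell cannot be told apart.

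The 3 genes closest to Thbs2 in pattern, out of 8653 compared by Pearson r of log2(value + 1) over the 9 libraries, were Trim30a (r = 0.99), an interferon-inducible tripartite motif gene, and the Y-linked Ddx3y (r = 0.99) and Kdm5d (r = 0.99). Trim30a averaged 46.3 in libraries labelled DKO, 9.22 in Sqstm1 KO and 55.8 in WT. Ddx3y averaged 49.0, 0 and 73.5 in those groups, and Kdm5d 20.3, 0 and 20.5. The 9 points form 3 groups and share library and depth, so r mixes differences between and within groups and is given as a description. Thbs2 itself lies on chromosome 17. Single markers of macrophages (Cd14) and of portal fibroblasts or mesothelium (Igfbp6) were also lower in Sqstm1 KO, while other members of both lists were not. Of 10 macrophage markers 4 had values, summing to 14.3 to 29.3 in libraries labelled DKO, 8.68 to 12.3 in Sqstm1 KO and 20.3 to 35.4 in WT. Cd14, the endotoxin co-receptor, averaged 11.1, 1.29 and 17.6 in those groups, while Cd68 averaged 4.04, 3.98 and 4.28, Csf1r 3.2, 3.05 and 1.97, and Mpeg1 2.67, 2.71 and 1.77. Of 10 portal fibroblast and mesothelial markers 4 had values, summing to 30.6 to 36.5, 12.3 to 17.4 and 21.8 to 35.4 in the same groups, with Igfbp6 at 11.6, 2.30 and 25.7. Thy1, at 3.86, 5.97 and 1.56, and Cd34, at 13.4, 6.74 and 2.07, were not lowest in Sqstm1 KO, and Wt1 averaged 5.67 in libraries labelled DKO and had 0 reads in Sqstm1 KO and WT. The other 6 of each list, among them Adgre1, Clec4f, Msln and Upk3b, were not analysed here. The part of the Y-linked genes and of these markers in the Thbs2 result was not tested.

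**Figure D2:**
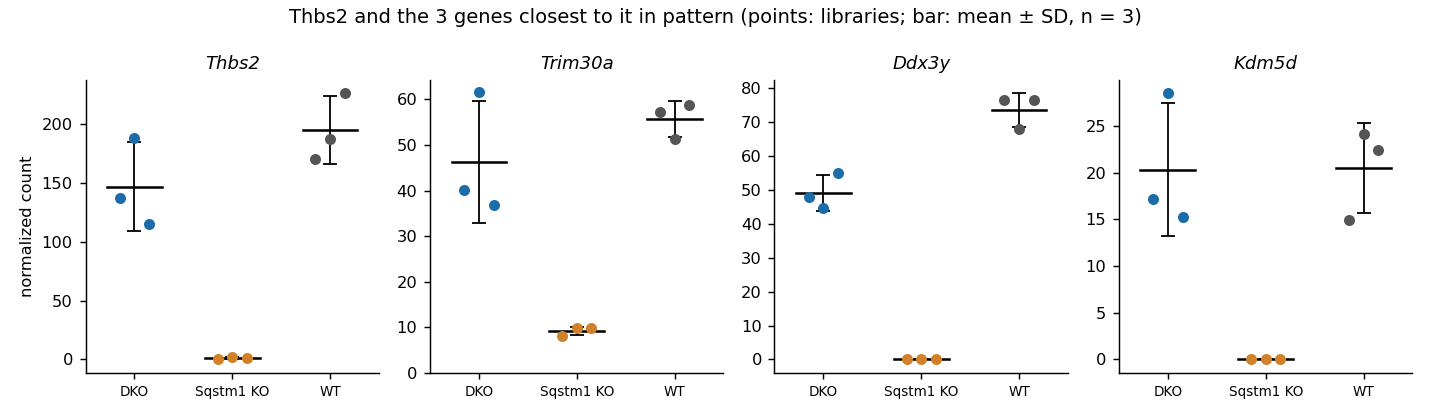
Normalized counts of Thbs2, Trim30a, Ddx3y and Kdm5d (y axis, linear) in libraries labelled DKO, Sqstm1 KO libraries and WT libraries; points are libraries and bars are the mean ± SD of 3. Each of the 4 genes is lowest in the 3 Sqstm1 KO libraries, where both Y-linked genes are at 0.

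The promoter windows of Thbs2, Tgfbi, Postn and Tnc are shown because these genes carry the largest changes that had a window. They are 300 bases from 250 before to 50 after the gene start, from RefSeq on GRCm38.p6, read 5' to 3' on the gene's strand; 6 of the 10 genes matched, with 8 windows, and Thbs1, Spon1, Fn1 and Dcn had no entry. Capitals mark matches to 1 of 6 motifs searched on both strands: TATAAA, the AP-1 form TGANTCA, the TEAD form CATTCC, the interferon response form (GAAA, any 2 bases, GAAA), the SMAD palindrome GTCTAGAC and the NF-kB form (GGGA, any 4 bases, CC). The windows are Thbs2 at chr17:14694213-14694512 on the minus strand, Tgfbi at chr13:56609336-56609635 on the plus strand, the second annotated start of Postn at chr3:54360857-54361156 on the plus strand, and the first annotated start of Tnc at chr4:64046966-64047265 on the minus strand.
Thbs2: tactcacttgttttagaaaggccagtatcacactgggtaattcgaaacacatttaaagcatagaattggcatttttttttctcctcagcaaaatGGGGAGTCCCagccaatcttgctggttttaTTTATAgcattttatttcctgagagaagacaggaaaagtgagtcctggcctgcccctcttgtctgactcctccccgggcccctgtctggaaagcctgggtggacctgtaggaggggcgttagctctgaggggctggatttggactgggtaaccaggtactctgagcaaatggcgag
Tgfbi: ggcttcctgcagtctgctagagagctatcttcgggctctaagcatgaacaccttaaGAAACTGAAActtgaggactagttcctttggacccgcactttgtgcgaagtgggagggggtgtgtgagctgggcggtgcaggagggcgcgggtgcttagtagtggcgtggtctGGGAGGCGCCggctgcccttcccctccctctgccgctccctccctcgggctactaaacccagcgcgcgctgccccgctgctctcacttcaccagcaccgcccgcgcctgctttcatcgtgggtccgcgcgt
Postn: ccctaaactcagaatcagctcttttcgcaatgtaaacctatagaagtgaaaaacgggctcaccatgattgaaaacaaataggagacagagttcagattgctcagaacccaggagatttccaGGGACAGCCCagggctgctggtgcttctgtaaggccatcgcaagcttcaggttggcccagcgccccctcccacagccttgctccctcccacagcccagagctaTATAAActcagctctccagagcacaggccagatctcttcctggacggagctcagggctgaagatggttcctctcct
Tnc: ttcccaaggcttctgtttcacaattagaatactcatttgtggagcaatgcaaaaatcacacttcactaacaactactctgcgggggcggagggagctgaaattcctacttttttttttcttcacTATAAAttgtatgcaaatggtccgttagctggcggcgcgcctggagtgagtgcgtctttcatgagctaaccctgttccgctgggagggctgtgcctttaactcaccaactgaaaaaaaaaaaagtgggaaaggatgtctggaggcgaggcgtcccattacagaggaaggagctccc
In Thbs2 the letters TATAAA were found on the opposite strand from position -126 and the NF-kB form on the opposite strand from -156, counted from the gene start. Postn held TATAAA from -26 and the NF-kB form from -129, Tnc held TATAAA from -126, and Tgfbi held the interferon response form from -194 and the NF-kB form from -81. None of these matches overlapped another. In the windows of these genes that are not shown, the first Postn start held no match and the second Tnc start held TATAAA from -205. Of 32851 windows of this length, 13.6% held TATAAA, 20.7% the NF-kB form and 3.44% the interferon response form. The other forms, found in 7.81% (TGANTCA), 14.7% (CATTCC) and 0.213% (GTCTAGAC) of windows, had no match in the 4 windows shown. The motifs were chosen after the values were seen, and a match describes letters only.

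Thbs1 encodes the thrombospondin that releases TGF-beta from its latent complex. It had 414, 524 and 413 normalized counts in libraries labelled DKO, 302, 299 and 167 in Sqstm1 KO, and 237, 299.8 and 306 in WT. The 3 libraries labelled DKO were above all 6 others, while Sqstm1 KO and WT overlapped. Thbs1 was not called in any comparison: the log2 fold change was 0.85 in DKO against Sqstm1 KO (SE 0.28; limma adjusted p = 0.1), 0.68 in DKO against WT (SE 0.28; limma adjusted p = 0.172) and -0.17 in Sqstm1 KO against WT (SE 0.28; limma adjusted p = 0.78). Without Sqstm1 KO replicate 3 the adjusted p of DKO against WT was 0.0359, and the value of Sqstm1 KO against WT turned to 0.11. Thbs3, which encodes a pentameric thrombospondin, was low throughout, at 30.6, 44.5 and 42.0 in libraries labelled DKO, 22.5, 25.2 and 21.7 in Sqstm1 KO, and 12.3, 28.6 and 20.6 in WT. The libraries labelled DKO again lay above the others, and no comparison was called (log2 fold change 0.96 in DKO against WT, SE 0.35; limma adjusted p = 0.125). Mtx1 averaged 107 in libraries labelled DKO, 72.8 in Sqstm1 KO and 118 in WT, and was not called in any comparison. Exons of Thbs3 overlap those of Mtx1 on the opposite strand over 318 bases, and reads from shared exons cannot be told apart. Thbs1 and Fn1 share 208 and 292 exon bases in the same way with Gm29233 and Apol7d, which were not analysed here.

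Spon1 encodes F-spondin, a secreted protein with thrombospondin type repeats first described in the floor plate. It had 18.2, 13.7 and 20.4 normalized counts in libraries labelled DKO, 32.7, 29.2 and 52.1 in Sqstm1 KO, and 92.6, 82.1 and 61.9 in WT. The 3 groups did not overlap, and DKO lay lowest. Spon1 fell in DKO against WT (17.4 ± 3.40 against 78.9 ± 15.6, log2 fold change -2.11, SE 0.32; limma adjusted p = 0.000832). The steps on either side of Sqstm1 KO were of like size and did not pass the threshold, at -1.06 for Sqstm1 KO against WT (SE 0.32; limma adjusted p = 0.0676) and -1.05 for DKO against Sqstm1 KO (SE 0.32; limma adjusted p = 0.0681). The Sqstm1 KO against WT value passed without Sqstm1 KO replicate 3 (adjusted p = 0.0153), and on recovered reads with edgeR (adjusted p = 0.0434) and DESeq2 (adjusted p = 0.0427).

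The pair of fasciclin-domain genes separated. Postn encodes periostin, which binds collagen I, fibronectin and tenascin-C and is a marker of activated fibroblasts. It had 45.9, 63.9 and 38.2 normalized counts in libraries labelled DKO, 92.9, 125 and 79.2 in Sqstm1 KO, and 5.45, 11.3 and 13.3 in WT. The 3 groups did not overlap, with Sqstm1 KO highest and WT lowest. Postn rose in Sqstm1 KO against WT (log2 fold change 3.23 with an SE of 0.35; limma adjusted p = 8.3e-05) and in DKO against WT (log2 fold change 2.24, SE 0.35; limma adjusted p = 0.0014). DKO against Sqstm1 KO gave a log2 fold change of -0.997 that did not pass (SE 0.35; limma adjusted p = 0.135). Both calls held in each of the 9 fits that left out 1 library.

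Tgfbi encodes the integrin- and collagen-binding protein induced by TGF-beta that is also known as keratoepithelin. Its normalized counts were 61.2, 61.7 and 50.9 in libraries labelled DKO, 3.06, 9.74 and 2.17 in Sqstm1 KO, and 0, 1.51 and 0 in WT, where 2 reads were counted in all. All 3 libraries labelled DKO lay above every other library, and Sqstm1 KO lay above WT. The Sqstm1 KO values rest on 3, 12 and 2 reads. Sqstm1 KO replicate 3 and WT replicate 2 each held 2 reads, so their order comes from the size factors alone. Tgfbi passed the filter on low values through the libraries labelled DKO alone. It rose in DKO against WT (log2 fold change 5.43 with an SE of 0.58; limma adjusted p = 5.43e-05), with a pooled read ratio of 108 (29.5 to 902), and in DKO against Sqstm1 KO (log2 fold change 3.51 with an SE of 0.58; limma adjusted p = 0.00212), with a pooled read ratio of 10.8 (6.51 to 18.9). Fold changes are of the value plus 1, which understates those of genes near 0. Sqstm1 KO against WT gave a log2 fold change of 1.93 that did not pass (SE 0.58; limma adjusted p = 0.073). It passed without Sqstm1 KO replicate 3 (0.0271) and under DESeq2 (0.0496) and quantile normalization (0.021).

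**Figure D3:**
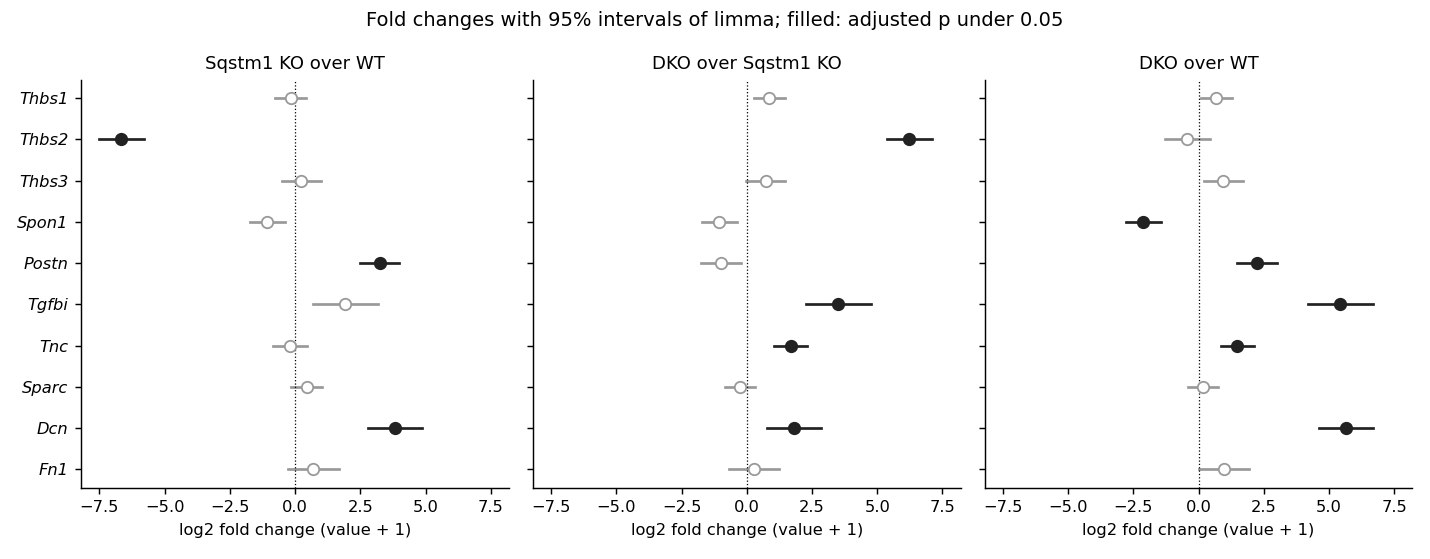
Log2 fold change of value + 1 (x axis) of each of the 10 genes in DKO against Sqstm1 KO, DKO against WT and Sqstm1 KO against WT, with 95% intervals of limma; filled points are called at adjusted p under 0.05. Thbs2 lies at 6.23 in DKO against Sqstm1 KO and at -6.66 in Sqstm1 KO against WT, and its interval in DKO against WT spans 0.

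Tnc encodes tenascin-C, a hexameric glycoprotein of healing and fibrotic tissue that weakens cell adhesion to fibronectin. It had 118, 212 and 148 normalized counts in libraries labelled DKO, 35.7, 67.4 and 44.5 in Sqstm1 KO, and 50.4, 55.7 and 57.6 in WT. The libraries labelled DKO were above all others, and Sqstm1 KO spanned the WT values. Tnc rose in DKO against Sqstm1 KO (159 ± 48.4 against 49.2 ± 16.3, log2 fold change 1.68 with an SE of 0.30; limma adjusted p = 0.00343) and in DKO against WT (WT 54.6 ± 3.75, log2 fold change 1.49, SE 0.30; limma adjusted p = 0.00812). Sqstm1 KO against WT did not pass (log2 fold change -0.19, SE 0.30; limma adjusted p = 0.77). The non-coding gene 8030451A03Rik overlaps Tnc exons on the opposite strand over 176 bases and moved with it, averaging 112 in libraries labelled DKO, 32.2 in Sqstm1 KO and 35.2 in WT. It rose by 1.93 on the log2 scale in DKO against Sqstm1 KO and by 1.61 in DKO against WT (limma adjusted p = 0.0152 and 0.0389), and reads from the shared bases cannot be assigned to either gene. It was named after its values were seen.

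Dcn encodes decorin, a small leucine-rich proteoglycan that binds collagen fibrils and TGF-beta. Its normalized counts were 61.2, 126 and 102 in libraries labelled DKO, 23.5, 28.4 and 24.9 in Sqstm1 KO, and 0, 3.01 and 0.606 in WT, where 5 reads were counted in all. The 3 groups did not overlap, with DKO highest and WT lowest. Dcn rose in Sqstm1 KO against WT (log2 fold change 3.83 with an SE of 0.48; limma adjusted p = 0.000305), with a pooled read ratio of 19.2 (7.89 to 60.7). It rose in DKO against WT (log2 fold change 5.65 with an SE of 0.48; limma adjusted p = 7.58e-06), with a pooled read ratio of 69.6 (29.5 to 216). The rise in DKO against Sqstm1 KO was smaller (log2 fold change 1.81, SE 0.48; limma adjusted p = 0.0407). That call was lost without any 1 of the DKO replicates 1 (0.0513), 2 (0.136) and 3 (0.158), Sqstm1 KO replicates 1 (0.0988) and 2 (0.078) or WT replicate 3 (0.0536), and with a pseudocount of 0.5 (0.101).

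Sparc encodes osteonectin, a collagen chaperone and binder. It had 699.95, 895 and 667 normalized counts in libraries labelled DKO, 735, 924 and 1059 in Sqstm1 KO, and 558, 697 and 742 in WT, and the groups overlapped in each comparison. No comparison was called, with log2 fold changes of -0.26 in DKO against Sqstm1 KO, 0.18 in DKO against WT and 0.44 in Sqstm1 KO against WT (SE 0.27; limma adjusted p = 0.643, 0.757 and 0.404). The DKO against WT value was -0.115 under quantile normalization. Fn1 had 1520.4, 1899.7 and 1573 normalized counts in libraries labelled DKO, 1766, 2476 and 584 in Sqstm1 KO, and 588, 1015 and 989 in WT. Sqstm1 KO replicate 3 lay under every WT library while the other Sqstm1 KO libraries lay above them, and the libraries labelled DKO were above WT without overlap. No comparison was called, with log2 fold changes of 0.28 in DKO against Sqstm1 KO, 0.98 in DKO against WT and 0.70 in Sqstm1 KO against WT (SE 0.45; limma adjusted p = 0.78, 0.224 and 0.424). Without Sqstm1 KO replicate 3 these were -0.34 (adjusted p = 0.571), 0.98 (adjusted p = 0.0229) and 1.32 (adjusted p = 0.0124). With the DKO and WT libraries alone, Fn1 in DKO against WT had a limma adjusted p of 0.0267.

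Per kilobase of exon, Sparc, Fn1 and Thbs1 held ranks 1, 2 and 3 of the 10 genes in each group, with Sparc at 199 normalized counts per kilobase in libraries labelled DKO, 239 in Sqstm1 KO and 176 in WT. Thbs2 was rank 4 in libraries labelled DKO and in WT and rank 10 in Sqstm1 KO, at 20.9, 0.168 and 27.8 normalized counts per kilobase in libraries labelled DKO, Sqstm1 KO and WT. Postn moved to rank 4 in Sqstm1 KO, against rank 9 in libraries labelled DKO and rank 8 in WT. Spon1 was rank 10 in libraries labelled DKO and rank 5 in WT. Lengths are unions of GENCODE exons, which may differ from the authors' annotation.

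The pattern of each gene over the 9 libraries was also set beside those of all other genes in the same way as for Thbs2. Tgfbi and Dcn were the closest pair among the 10 (r = 0.91), and Spon1 mirrored both (r = -0.94 with Tgfbi and -0.92 with Dcn). The nearest genes were Smarca1, Epha4 and Actg2 for Postn (r = 0.98, 0.97 and 0.97), and Lama4, Hif1a and C1s1 for Tnc (0.98, 0.97 and 0.96). They were Ptn, Clca3a1 and Med12l for Dcn (0.98, 0.98 and 0.98), and Fzd4, Tmem102 and Mycbp2 for Tgfbi (0.97, 0.97 and 0.97). For Thbs1 they were Vcan, Cyp1b1 and Lifr (0.97, 0.97 and 0.97), for Spon1 Adgrg6, Clca1 and Fpr1 (0.98, 0.95 and 0.94), and for Fn1 Itpr1, Il6st and Xiap (0.97, 0.97 and 0.95). Ptn, the growth factor pleiotrophin, averaged 470 normalized counts in libraries labelled DKO, 47.6 in Sqstm1 KO and 1.56 in WT. Vcan, the proteoglycan versican, averaged 183, 27.3 and 29.8 in those groups.

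Several collagens that these proteins bind rose against WT in both knock-out groups. Of 10 listed collagen genes, 5 were called higher and 0 lower by limma in each of the comparisons with WT (0 lower also at an unadjusted p under 0.05, and by edgeR and DESeq2), and 1, Col6a3, was called lower in DKO against Sqstm1 KO. The other 5, Col1a1, Col5a1, Col5a2, Col6a1 and Col6a2, passed in no comparison, and Col5a1 (-0.12), Col6a1 (-0.38) and Col6a2 (-0.04) had negative log2 fold changes in Sqstm1 KO against WT. The median log2 fold change of the 10 collagen genes was 1.33 in DKO against WT and 1.14 in Sqstm1 KO against WT. Among all genes tested, 4.11% were called higher in DKO against WT and 2.43% in Sqstm1 KO against WT. In DKO against Sqstm1 KO 1.51% were called lower. Col1a2 averaged 1733 ± 205 in libraries labelled DKO and 2110 ± 248.9 in Sqstm1 KO, against 293 ± 10.9 in WT (limma adjusted p = 3.36e-05 and 1.7e-05). Col6a3 averaged 52.7 ± 3.14 in libraries labelled DKO, 171 ± 81.7 in Sqstm1 KO and 16.4 ± 0.125 in WT, with an order of the groups like that of Postn. Its fall in DKO against Sqstm1 KO (limma adjusted p = 0.0204) was lost without DKO replicate 1 or 3 or Sqstm1 KO replicate 1 or 2 (highest adjusted p = 0.0904). Col14a1 averaged 44.3 ± 10.8 in libraries labelled DKO against 0.753 ± 1.30 in WT (limma adjusted p = 0.000102). It passed the filter on low values through the knock-out groups alone. Col3a1 and Col12a1, named after their values were seen, made up the 5 in each comparison with WT. Of 17 stellate cell markers 12 had values, summing to 4033 to 6341 in libraries labelled DKO, 5654 to 6031 in Sqstm1 KO and 1756 to 1868 in WT. Of the 11 tested, 7 were called higher in DKO against WT and 5 in Sqstm1 KO against WT, beside 4.11% and 2.43% of all genes tested. The 5 were Acta2, Tagln, Timp1, Hand2 and Col1a2, and DKO against WT added Pdgfra and Hgf. Hgf passed the filter on low values through the libraries labelled DKO alone, and Timp1 through the knock-out groups alone. Without Col1a1 and Col1a2, which the collagen list also holds, the sums were 1183 to 1491, 1638.5 to 2367 and 745 to 809.55 in the same groups. Not every marker had that order: Pdgfra averaged 234, 74.1 and 98.6, Hgf 28.3, 0.994 and 3.73, Vim 230.4, 404 and 364, and Gata4 1.19, 0 and 4.89. The stellate cell genes Lrat, Reln, Des, Lhx2 and Colec11 were not analysed here. The part of the markers in the Postn, Tgfbi and Dcn results was not tested.

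**Figure D4:**
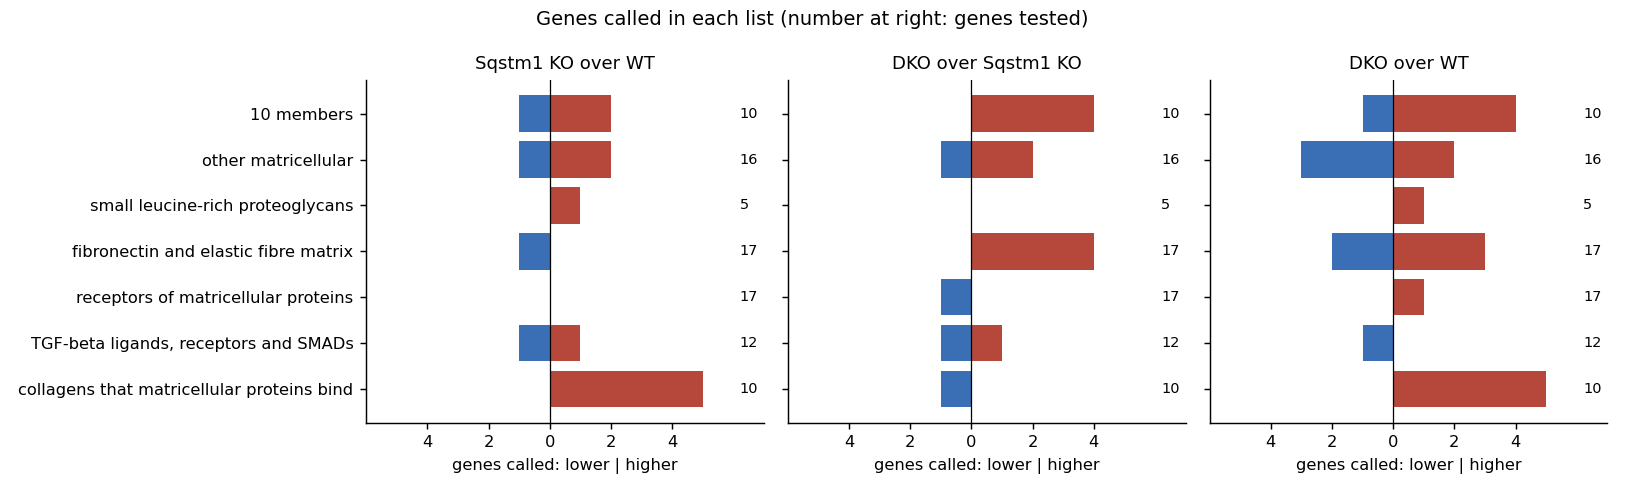
Genes called lower (left of 0) and higher (right of 0) among the 10 matricellular genes and in 6 lists of related genes, in each of the 3 comparisons; the number at the right is the number of genes tested. Collagens have 5 of 10 genes called higher in each comparison with WT, and the receptors have at most 1 of 17 called.

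Among other matricellular genes, 16 of 37 listed symbols were tested, with 2 called higher and 1 lower in Sqstm1 KO against WT, 2 and 1 in DKO against Sqstm1 KO, and 2 and 3 in DKO against WT. Among all genes tested, 5.61%, 5.93% and 6.42% were called in these comparisons, in either direction. The median log2 fold change of the list was -0.02, -0.11 and -0.02 in the same order, close to that of all genes tested. Tnxb, the tenascin of dermal and vascular matrix, fell in Sqstm1 KO against WT (49.8 ± 15.9 against 162 ± 44.5; limma adjusted p = 0.00387), where Tnc was not called. Fbln1, a fibronectin-binding fibulin, rose in DKO against Sqstm1 KO, with 18.2 ± 6.81 normalized counts against 0 reads, at least 19.0-fold higher at a floor of 3 counts over the group (limma adjusted p = 0.00269). Fbln5, a fibulin of elastic fibres, fell in DKO against WT (7.91 ± 5.65 against 38.7 ± 4.40; limma adjusted p = 0.00537). Fbln1 and Tnn, the 2 called higher in DKO against Sqstm1 KO, passed the filter on low values through the libraries labelled DKO alone. The filter therefore set their direction in the comparisons of DKO. The calls of Tnxb and of Fbln5 held in each of the 9 fits that left out 1 library. That of Fbln1 in DKO against Sqstm1 KO held as well, in fits of genes taken by that same filter. The calls of Ccn5, Igfbp7, Tnn and Lgals3, that of Lgals1 in DKO against Sqstm1 KO and that of Fbln1 in DKO against WT were each lost in 3 or more of those 9 fits. Ccn5, called higher in both comparisons with WT, passed the filter through the knock-out groups alone.

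Of the small leucine-rich proteoglycans, the family of Dcn, 5 of 13 were tested and 1, Prelp, was called. Prelp averaged 11.5 ± 2.88 in libraries labelled DKO and 8.65 ± 3.53 in Sqstm1 KO against 0 reads in WT, at least 14.3-fold and 10.7-fold higher at a floor of 3 counts over the WT group (limma adjusted p = 0.00155 and 0.00439). It passed the filter through 3 libraries of those knock-out groups. Of the fibronectin and elastic fibre genes, 17 of 25 were tested: 4 rose in DKO against Sqstm1 KO (Vcan, Bmp1, Ltbp2 and Npnt), 3 rose (Vcan, Bmp1 and Ltbp2) and 2 fell (Ltbp1 and Loxl1) in DKO against WT, and 1 fell (Emilin2) in Sqstm1 KO against WT. These calls are 23.5%, 29.4% and 5.88% of the genes of that list tested in those comparisons. Among all genes tested, 5.93%, 6.42% and 5.61% were called in the same order, so the last share is near that of all genes. Prelp is 20% of the tested genes of its list in each comparison with WT. The calls of Ltbp1, Loxl1 and Emilin2 were each lost in 5 or more of the 9 fits without 1 library. Vcan rose in DKO against Sqstm1 KO by 3.03 on the log2 scale and in DKO against WT by 2.57 (SE 0.51; limma adjusted p = 0.0022 and 0.00716), and both calls held in each fit without 1 library. Bmp1, the procollagen C-proteinase, averaged 90.2 ± 26.7 in libraries labelled DKO, 27.3 ± 7.69 in Sqstm1 KO and 31.3 ± 5.26 in WT (limma adjusted p = 0.00474 and 0.0115), and the call against WT was lost without DKO replicate 3 or WT replicate 1 or 2 (highest adjusted p = 0.0767). Exons of Tnxb and Prelp overlap those of Cyp21a2-ps and Gm15851 on the opposite strand. Ltbp2 and Npnt were named after their values were seen.

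The receptors of matricellular proteins had 0 of 17 tested genes called in Sqstm1 KO against WT, 1 lower (Itga6) in DKO against Sqstm1 KO and 1 higher (Sdc1) in DKO against WT. The last 2 counts are 5.88% of the receptors, near the 5.93% and 6.42% of all genes tested, and both calls were lost in 7 or more of the 9 fits without 1 library. The count of 0 is that of limma, where 1 receptor gene, lower, had an unadjusted p under 0.05, and edgeR and DESeq2 on recovered reads also called 0. Of 12 tested genes of the TGF-beta pathway, which Thbs1 activates and Dcn binds, 2 were called in each comparison with Sqstm1 KO. That is 16.7% of them, beside 5.61% of all genes tested in Sqstm1 KO against WT and 5.93% in DKO against Sqstm1 KO. Tgfbr3, the co-receptor betaglycan, averaged 79.9 ± 3.99 in libraries labelled DKO, 4.81 ± 1.72 in Sqstm1 KO and 40.7 ± 6.92 in WT, so that it fell in Sqstm1 KO against WT and rose in DKO against Sqstm1 KO (limma adjusted p = 9.44e-05 and 6.46e-06). Inhba, a subunit of activin, was highest in Sqstm1 KO, at 30.8 ± 4.05, 79.7 ± 6.97 and 24.4 ± 2.26 in those groups, and rose in Sqstm1 KO against WT and fell in DKO against Sqstm1 KO (limma adjusted p = 0.00173 and 0.00675). Both genes kept both calls in each fit without 1 library.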

How the data were processed

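RNA sequencing of 9 mouse hepatic stellate cell libraries gave 1 deposited table. Its deposited signal values are gene counts over a size factor for each library, as the authors made them, and 100% of 121126 values above 0 were whole reads within 0.01, which allowed reads to be recovered. Alignment with STAR, DESeq2 and the build GRCm39 are named per the submitters' processing notes, without versions. The counter, annotation, strandedness and filter were not given in the sources used here. No column was left unused (0). Depth was 819677 to 1467793 reads per library. Since no molecular identifiers are recorded, reads may be copies of one another, so intervals and the floor of 3 counts cover counting error only.

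The test was limma 3.58.1 (R 4.3.3) with a mean-variance trend, two-sided, on log2(value + 1) of all 9 libraries in 3 groups without covariates. It took the 10118 genes reaching 10 normalized counts in 3 or more libraries, with Benjamini-Hochberg adjustment over all of them, a threshold of 0.05 and 3 comparisons. The script was tested on simulated data. Alternatives were pseudocounts of 0.5 and 5, no filter, a filter at 50, quantile normalization, edgeR 4.0.16 and DESeq2 1.42.0 on recovered reads, 2 groups at a time, a replicate block, and leaving out each library.

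The genes named were the 10 matricellular genes, up to 2 called genes per direction and comparison of each list, Sqstm1, Nbr1 and the Y-linked genes, the 3 genes closest in pattern to each matricellular gene (predicted genes left out), and markers that move with a result; some are not reported here. The members and lists were chosen with earlier results of these data known. GENCODE on GRCm38 gave exon lengths and overlaps, and RefSeq on GRCm38.p6 gave promoters.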

Additional observations from a re-analysis of the deposited data

How the results depend on the processing

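Of the values of single genes recomputed under other settings, 513 kept their direction and side of the threshold, 11 newly passed it, 8 no longer did and 5 changed sign. The 5, none of them called, were Sqstm1 KO against WT for Thbs1 (-0.32 to 0.11 over the fits without 1 library; 0.11 without Sqstm1 KO replicate 3), Thbs3 (-0.073 without WT replicate 1 to 0.51) and Tnc (-0.44 to 0.0067, without Sqstm1 KO replicate 1), Fn1 in DKO against Sqstm1 KO (-0.34 without Sqstm1 KO replicate 3 to 0.71), and Sparc in DKO against WT (-0.115 with quantile normalization). The 8 lost calls all belong to Dcn in DKO against Sqstm1 KO, which also had an adjusted p of 0.0506 with the filter at 50. Thbs3 was left out by that filter. The cause of these changes was not tested.

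Over all genes, 568 were called in Sqstm1 KO against WT, 600 in DKO against Sqstm1 KO and 650 in DKO against WT. With a filter at 50, which left 3921 genes, these were 290, 291 and 360. With only the libraries of the groups compared, 352 were called in DKO against Sqstm1 KO and 1229 in DKO against WT. Leaving out 1 library gave 264 to 659, 333 to 777 and 294 to 1409 genes, and 3 to 6, 3 to 4 and 5 to 7 of the 10 matricellular genes. DESeq2 called 5 of them in Sqstm1 KO against WT, where limma called 3.

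Replicate numbers are shared by the groups. Deviations from the group means correlated at -0.12 to 0.18 between libraries with the same number. All of these but that of DKO and WT replicate 3 were above 0. Between libraries with different numbers they ran from -0.26 to 0.26. The main fit took no pairs, and whether replicates of the same number share an effect was not tested. With the replicate block 690, 672 and 754 genes and 4, 4 and 5 of the 10 were called, with Tgfbi added in Sqstm1 KO against WT (adjusted p = 0.0462). Low values limit Thbs2 in Sqstm1 KO and Tgfbi and Dcn in WT, which rest on 4, 2 and 5 reads.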
